A study of Homo sapiens with 10 samples.

Results

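The transcriptional repressor REST and 8 genes of the complexes it recruits were followed by RNA sequencing in ESI017 cells, a human pluripotent stem cell line. The 9 genes are REST, RCOR1, RCOR2, RCOR3, KDM1A, HDAC1, HDAC2, SIN3A and EHMT2, taken by symbol from the 35940 symbols in the count table. They correspond to 14 Ensembl identifiers, because EHMT2 has 6, and all 9 passed the filter on low counts that left 15251 genes. The cells, of wild-type genotype, stayed in the defined medium mTeSR1 throughout. Some wells received recombinant WNT3A (300 ng/ml) and were harvested 6 h or 18 h later. Others received CHIR99021 (8 µM), a small molecule that inhibits GSK3, and were harvested at the same times, and untreated wells (mTeSR1) are the controls. Each of these 5 groups has 2 libraries. WNT3A at 6 h and 18 h, CHIR99021 at 6 h and mTeSR1 have 1 library from each of 2 biological repeats, whereas both CHIR99021 18 h libraries come from repeat 2. All libraries come from 1 cell line, and the untreated cells serve both treatment times.

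REST is a zinc finger protein that binds RE1 elements and keeps neuronal genes silent in stem cells and in cells outside the nervous system. Its N-terminal end recruits SIN3 with the histone deacetylases HDAC1 and HDAC2. Its C-terminal end recruits a CoREST protein (RCOR1, RCOR2 or RCOR3) with the same deacetylases and the histone demethylase KDM1A, and the complexes can also hold the H3K9 methyltransferase EHMT2. In the chick spinal cord REST has been described as a direct target of canonical WNT signalling. CHIR99021 activates that pathway inside the cell by blocking GSK3, and WNT3A acts at the receptor. The 9 genes were chosen with results of these libraries known, and are treated as selected on REST's measured difference from mTeSR1. Their values are therefore given as a description with standard errors and without p-values.

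REST messenger RNA was higher than in mTeSR1 in every treated library. It stood at 151 and 183 CPM, counts per 1000000 of a library total scaled by TMM factors, after 6 h of WNT3A. WNT3A for 18 h gave 168.5 and 129 CPM. CHIR99021 for 6 h gave 98.5 and 83.9 CPM, and for 18 h 117.5 and 139 CPM, against 62.2 and 63.3 CPM in mTeSR1. No treated group overlapped mTeSR1, whose libraries differed by about 1 CPM, and the CHIR99021 6 h libraries were the lowest of the treated ones. Of all genes tested, 25.6% and 43.1% did not overlap mTeSR1 after 6 h and 18 h of WNT3A. With CHIR99021 these shares were 32.4% and 46.9%. Over mTeSR1, the log2 change of REST was 1.41 (SE 0.18) after 6 h of WNT3A, 1.25 (SE 0.18) after 18 h of WNT3A and 0.54 (SE 0.18) after 6 h of CHIR99021. It was 1.07 (SE 0.18) after 18 h of CHIR99021. Bulk RNA does not tell a change per cell from a change in the share of cells with the transcript.

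**Figure D1:**
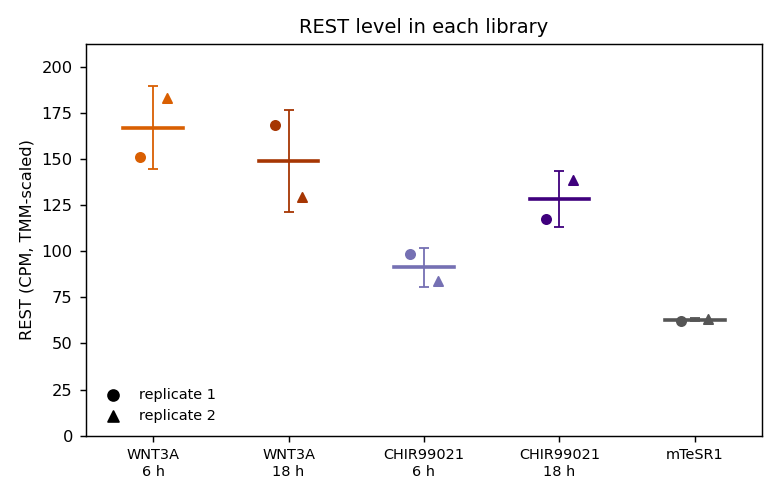
REST level in each library, in CPM on a linear axis from 0, by group. Circles and triangles are replicates 1 and 2 (both of repeat 2 for CHIR99021 18 h), lines are means and bars the SD of 2 libraries. All treated libraries, from 83.9 CPM upward, lie above the mTeSR1 libraries at 62.2 and 63.3 CPM.

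REST was above mTeSR1 within each repeat. In repeat 1, REST was 2.43 times its mTeSR1 level after 6 h of WNT3A, 2.71 times after 18 h of WNT3A and 1.59 times after 6 h of CHIR99021. In repeat 2 these ratios were 2.89, 2.04 and 1.33, and the CHIR99021 18 h libraries gave 1.86 and 2.19. The WNT3A times thus stood in opposite order in the repeats. REST at 18 h of WNT3A over 6 h had a log2 change of -0.17 (SE 0.18), which was within the spread of the libraries. At 18 h of CHIR99021 it was 0.53 (SE 0.18) above 6 h of CHIR99021. At 6 h, CHIR99021 over WNT3A gave -0.87 (SE 0.18), and neither this pair of groups nor the CHIR99021 times overlapped. How many of all genes did not overlap in pairs of treated groups was not counted. At 18 h, CHIR99021 over WNT3A gave -0.17 (SE 0.18). In the order of mean levels, WNT3A 6 h and WNT3A 18 h overlapped, as did WNT3A 18 h and CHIR99021 18 h. CHIR99021 6 h overlapped no other group. The doses of the protein and the inhibitor are not matched, so these values compare the agents only as they were used.

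AXIN2, a feedback inhibitor and widely used reporter of WNT signalling, was ordered in the same way at 6 h. It had 250 and 184 CPM after 6 h of WNT3A, 104 and 112 CPM after 6 h of CHIR99021, and 39.3 and 31.8 CPM in mTeSR1. It had 211 and 168 CPM after 18 h of WNT3A. The CHIR99021 18 h libraries differed from each other, with AXIN2 at 120 and 249.3 CPM beside REST at 117.5 and 139 CPM. Mesendoderm markers (TBXT, EOMES, MIXL1, GSC) summed to 22.1 and 209 CPM in those libraries. Their sum was 71.5 and 74.1 CPM after 6 h of WNT3A, 231 and 240 CPM after 18 h of WNT3A, 6.22 and 7.82 CPM after 6 h of CHIR99021, and 0.471 and 1.59 CPM in mTeSR1. TBXT and GSC were at 0 in both mTeSR1 libraries. The part of these cells in the REST level was not tested.

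Counted with the rule used for all genes (edgeR quasi-likelihood test, Benjamini-Hochberg adjusted p, FDR, under 0.05), REST was the member called after 6 h of WNT3A, where 0.433% of genes tested were called. It was also the member called after 18 h of WNT3A, with a background of 2.1%, and after 18 h of CHIR99021, with a background of 2.78%. None of the 9 was called after 6 h of CHIR99021, where 0.0197% of genes were. Between treated groups edgeR also called none of the 9, for 18 h over 6 h of WNT3A or of CHIR99021, where 0.144% and 0.00656% of genes were called, or for CHIR99021 over WNT3A, where 0.00656% were called at 6 h and 0% at 18 h. An unadjusted p under 0.05 was found there for 1 of the 9 at 18 h over 6 h of CHIR99021 and for 1 at 6 h of CHIR99021 over WNT3A, REST in both, and in the second DESeq2 called it. Because REST's contrasts were part of the choice of genes, nothing is read from these counts. The call after 6 h of WNT3A was lost, leaving 0 members, without mTeSR1 replicate 1 or without mTeSR1 replicate 2. The call at 18 h of WNT3A was lost without either mTeSR1 library or without WNT3A 18 h replicate 1. That at 18 h of CHIR99021 was lost without either mTeSR1 library or without CHIR99021 18 h replicate 2.

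**Figure D2:**
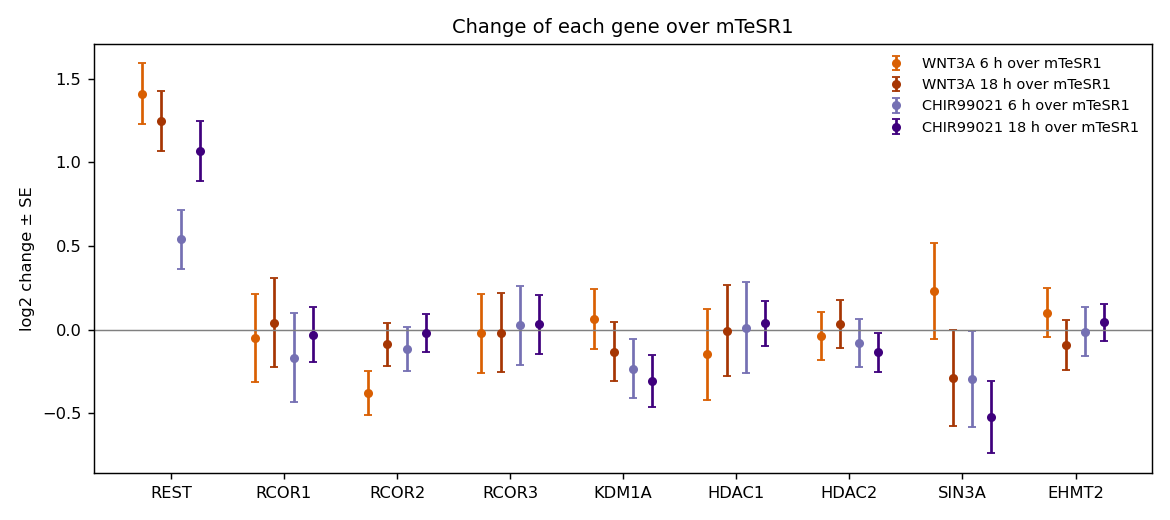
Log2 change over mTeSR1 with its standard error (bars) for each of the 9 genes in the 4 comparisons. REST lies between 0.54 and 1.41, and the 8 co-repressors lie between -0.52 and 0.23.

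The 8 co-repressor genes had log2 changes over mTeSR1 smaller in size than that of REST in each comparison. Their log2 changes ran between -0.38 and 0.23 after 6 h of WNT3A (median -0.03, against 0.01 over all genes tested) and between -0.29 and 0.04 after 18 h of WNT3A (median -0.05, against 0.02). They ran between -0.30 and 0.03 after 6 h of CHIR99021 (median -0.10, against 0.01) and between -0.52 and 0.04 after 18 h of CHIR99021 (median -0.02, against 0.02). None of the 8 was called by edgeR or DESeq2 in these 4 comparisons. An unadjusted p under 0.05 was found for 1 of the 8 after 6 h of WNT3A and 1 after 18 h of CHIR99021, and for 0 in the other comparisons. In each comparison 1 of the 8 did not overlap mTeSR1, while groups did not overlap for 25.6% of genes tested after 6 h of WNT3A and 43.1% after 18 h. For CHIR99021 these shares were 32.4% at 6 h and 46.9% at 18 h.

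**Figure D3:**
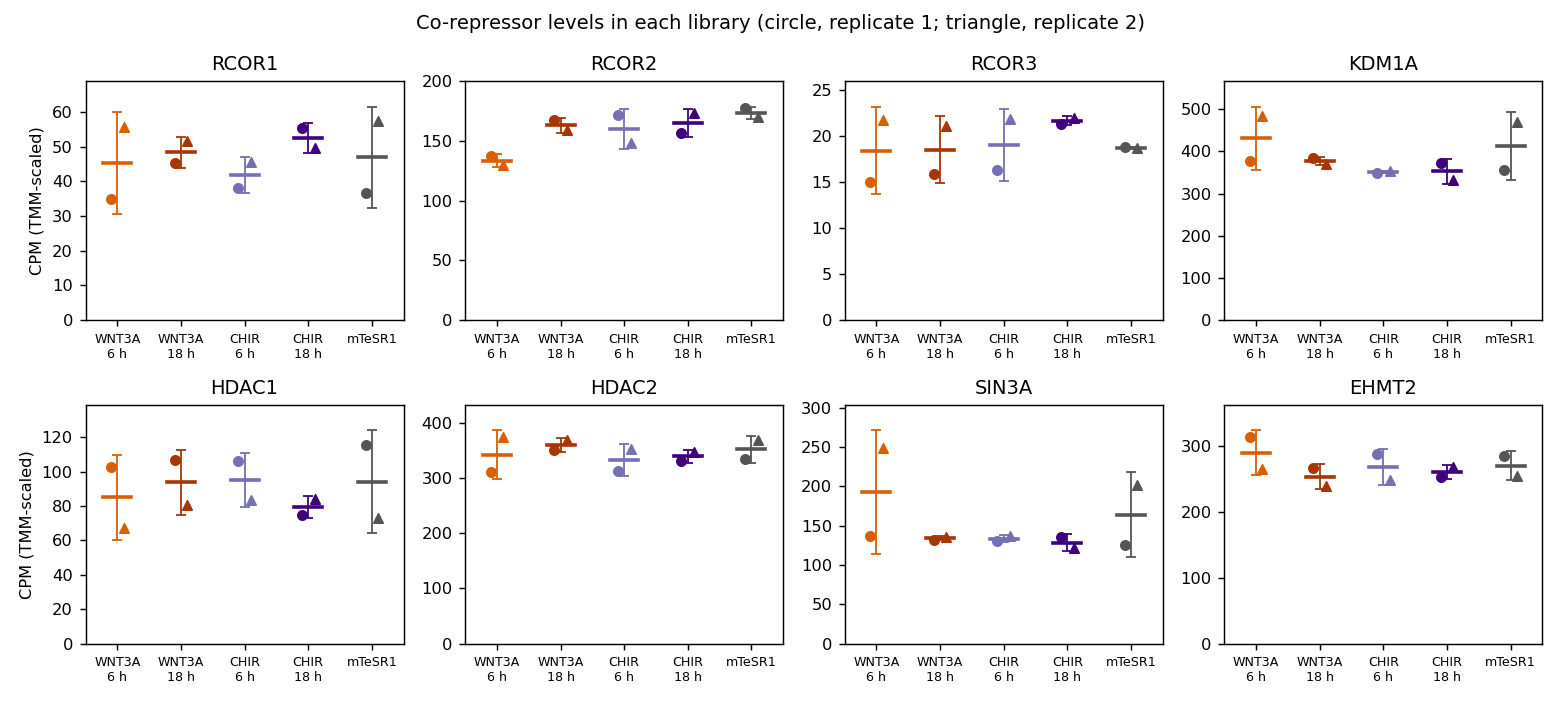
Levels of the 8 co-repressor genes in each library, in CPM on linear axes from 0. Circles and triangles are replicates 1 and 2, lines are means and bars the SD of 2 libraries. RCOR2 is lower after 6 h of WNT3A (137.5 and 130 CPM) than in mTeSR1 (177 and 170 CPM), and SIN3A is high in 2 libraries of repeat 2.

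Among the CoREST scaffolds, RCOR2 had most of the messenger RNA. Per kilobase of the longest annotated transcript, RCOR2 had 66.7 CPM in mTeSR1, RCOR1 8.17 and RCOR3 4.41. RCOR2, the family member described in mouse embryonic stem cells and neural progenitors, had 137.5 and 130 CPM after 6 h of WNT3A, against 177 and 170 CPM in mTeSR1. These libraries did not overlap, and the log2 change was -0.38 (SE 0.13). In repeat 1 the ratio was 0.775 and in repeat 2 it was 0.764. RCOR2 had 168 and 159 CPM after 18 h of WNT3A, 172 and 148 CPM after 6 h of CHIR99021, and 157 and 173 CPM after 18 h of CHIR99021.

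RCOR1, the first described CoREST protein, differed more between repeats than between groups. It had 34.9 and 55.8 CPM after 6 h of WNT3A and 36.7 and 57.3 CPM in mTeSR1, replicate 2 being the higher in both. It had 45.2 and 51.6 CPM after 18 h of WNT3A and 38.1 and 45.6 CPM after 6 h of CHIR99021. RCOR1 had 55.5 and 49.5 CPM after 18 h of CHIR99021. RCOR3, the least abundant of the 9 per kilobase of longest transcript, had 15.04 and 21.8 CPM after 6 h of WNT3A, against 18.8 and 18.7 CPM in mTeSR1. It had 21.3 and 21.99 CPM after 18 h of CHIR99021, above both mTeSR1 libraries, and its log2 change with the repeat as a block was 0.03 (SE 0.18).

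KDM1A, the demethylase that removes methyl groups from H3K4, had 350.0 and 352.5 CPM after 6 h of CHIR99021, below both mTeSR1 libraries at 356 and 470 CPM. It had 378 and 484 CPM after 6 h of WNT3A, 384 and 370 CPM after 18 h of WNT3A, and 373 and 332 CPM after 18 h of CHIR99021. SIN3A, the scaffold bound at the N-terminal end of REST, had 137 and 248 CPM after 6 h of WNT3A and 126 and 202 CPM in mTeSR1. The other 6 libraries had between 121 and 137 CPM of SIN3A. SIN3A after 18 h of CHIR99021 had the lowest log2 change over mTeSR1 among the 9 genes and 4 comparisons, -0.52 (SE 0.22). In repeat 2, SIN3A was 0.674 times mTeSR1 after 18 h of WNT3A and 0.676 times after 6 h of CHIR99021. After 18 h of CHIR99021 it was 0.673 and 0.599 times. The KDM1A ratios there were 0.788, 0.750, 0.794 and 0.706, in that order. In repeat 1, after 18 h of WNT3A and 6 h of CHIR99021, SIN3A was 1.05 and 1.04 times mTeSR1 and KDM1A 1.08 and 0.983 times. The libraries with the highest KDM1A and SIN3A were replicate 2 of WNT3A 6 h and replicate 2 of mTeSR1. In those libraries the deviation of a gene from its mean over all libraries rose with transcript length, with Spearman coefficients across genes of 0.448 and 0.349, against -0.293 to -0.013 in the other 8. The part of length in these levels was not tested.

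The deacetylase genes differed from each other in how they varied. HDAC1 grouped by biological repeat, with 102.5 to 115 CPM in the 4 libraries of repeat 1 and 67.5 to 83.8 CPM in the 6 of repeat 2. Within repeats, HDAC1 after 6 h of WNT3A was 0.889 times mTeSR1 in repeat 1 and 0.926 times in repeat 2. HDAC2 lay between 311 and 373 CPM in all 10 libraries, and each treated group overlapped mTeSR1 at 334 and 369 CPM. Its log2 change was -0.04 (SE 0.14) after 6 h of WNT3A and -0.13 (SE 0.12) after 18 h of CHIR99021.

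EHMT2 had 314 and 266 CPM after 6 h of WNT3A, 267.5 and 239.9 CPM after 18 h of WNT3A, and 286 and 255 CPM in mTeSR1. After 6 h of CHIR99021 it had 287.5 and 248.7 CPM, and after 18 h 253 and 268 CPM. Each treated group overlapped mTeSR1. The count of EHMT2 is a sum over 6 identifiers, of which the gene on chromosome 6 (31879759 to 31897687, minus strand, GRCh38) held 32.9% to 38.2% per library. The other 5 are not on the primary assembly, and 2 of those were at 0 in all libraries. One of them held 4.01% to 6.27% of the EHMT2 count in repeat 1 and 6.81% to 18.1% in repeat 2, so single identifiers of EHMT2 are uncertain.

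Absolute order among the 9 depended on the transcript chosen. By the longest annotated transcript KDM1A came first in mTeSR1, at 135 CPM per kilobase. By the median coding transcript HDAC2 came first, at 169 CPM per kilobase. RCOR1 and RCOR3 were the lowest by both lengths, below 10 CPM per kilobase in every group. REST, on chromosome 4 (56907876 to 56966678, plus strand, GRCh38), had 22.9 CPM per kilobase of longest transcript after 6 h of WNT3A and 8.60 in mTeSR1.

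REST acts at RE1 elements, and 5 of the listed target genes with a RefSeq promoter window (GRCh38.p14) held the left part of that element, TTCAGCACC. The window runs from 250 bases before to 50 after a gene start. The stretches show how the parts of RE1 lie, with the left part and any GGACAG of the right part in capitals.
CELSR3: tctgTTCAGCACCaggagcaacgctcacgt
GRIA2: gcctTTCAGCACCgaGGACAGcgcctcgct
SCG3: gaacTTCAGCACCcacagggcGGACAGcgc
UNC13A: ttggTTCAGCACCgggggcgcGGACAGcgc
SYN1: cagcTTCAGCACCgcGGACAGtgccttcgc
They lie at chr3:48663009-48663038 (minus strand) for CELSR3, chr4:157220383-157220412 (minus) for GRIA2 and chr15:51681507-51681536 (plus) for SCG3. Those of UNC13A and SYN1 lie at chr19:17688336-17688365 (plus) and chrX:47620065-47620094 (minus). TTCAGCACC, searched on both strands, was found in 5 of the 28 target genes with a window and in 0.376% of all 35116 windows. The 28 genes have 44 windows, so a count of genes and a share of windows are not in the same unit. TTCAGCACC followed after any 2 bases by GGACAG was found in GRIA2 and SYN1, and in 0.0142% of windows. A match is a description of letters and not evidence of binding in these cells.

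Of 41 genes known as REST targets, mostly neuronal, 31 passed the filter on low counts. The other 10, among them the glutamate receptor gene GRIA2 and the synaptic vesicle gene SNAP25, reached at most 1.02 CPM in any library, and GRIA2 was at 0 in all 10. The 41 genes summed to 1213 and 1099 CPM after 6 h of WNT3A, 866 and 752 CPM after 18 h of WNT3A, 1182 and 1049 CPM after 6 h of CHIR99021, and 867 and 799 CPM after 18 h of CHIR99021. In mTeSR1 they summed to 1332 and 1274 CPM, above every treated library.

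The target list was also chosen with earlier results of these data known, so its counts and FDR values are given as a description. After 18 h of WNT3A, 5 of the 31 fell (edgeR, FDR under 0.05) and 0 rose, against 1.06% of all genes tested that fell. These were SYP, CHRNB2, SYN1, MAPK8IP1 and RUNDC3A. With CHIR99021 for 18 h, 8 fell and 0 rose, against 1.63% of all genes that fell. These were SYP, SYT4, CHRNB2, SYN1, MAPK8IP1, AP3B2, STMN3 and PTPRN. The CHIR99021 fit held the repeat as a block and the WNT3A fit did not, so the counts of 5 and 8 are not compared. The median log2 change of the 31 was -0.87 after 18 h of WNT3A, with 27 negative, and -0.51 after 18 h of CHIR99021, with 26 negative. Over all genes tested it was 0.02 in both, with 47.7% and 48.4% negative. With the repeat as a block, 14 targets fell after 18 h of WNT3A, the 5 named among them, against 2.86% of all genes in that fit. Without the block, 4 fell after 18 h of CHIR99021 (SYP, CHRNB2, MAPK8IP1 and SYT4), against 0.525% of all genes.

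**Figure D4:**
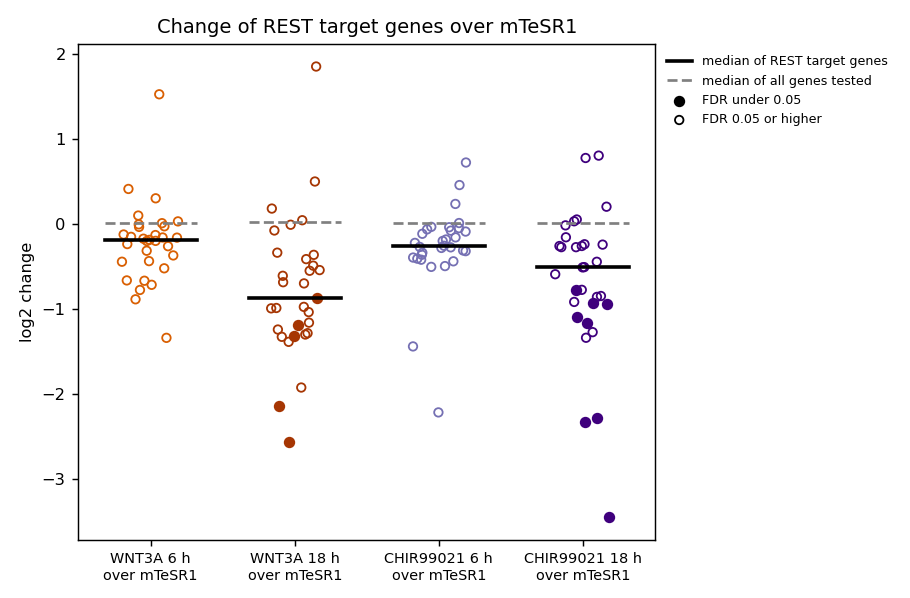
Log2 change over mTeSR1 of the 31 REST target genes tested (points) in the 4 comparisons, filled where FDR is under 0.05. The repeat entered as a block for CHIR99021 18 h only. Solid lines are the medians of the targets (-0.19 and -0.87 for WNT3A at 6 h and 18 h, -0.26 and -0.51 for CHIR99021), and dashed lines those of all genes tested.

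At 6 h none of the 31 was called by edgeR in either treatment. After WNT3A, 4 had an unadjusted p under 0.05, as had 6.16% of all genes, and after CHIR99021 2 had, as had 4.75% of all genes. DESeq2 called 0 targets in both, and 1.63% and 0.426% of all genes. The median was -0.19 after 6 h of WNT3A, with 25 of 31 negative, and -0.26 after 6 h of CHIR99021, with 27 negative. Over all genes it was 0.01 in both, with 48.9% and 48.8% negative. REST itself was at its highest mean level after 6 h of WNT3A. Between the times, 18 h over 6 h of WNT3A gave a median of -0.58 with 0 called by edgeR (background 0.144%), 12 with an unadjusted p under 0.05 (13.2% of all genes) and 7 called by DESeq2 (2.71% of all genes), 1 of them higher. For CHIR99021, 18 h over 6 h gave a median of -0.24 with 0 called by edgeR (background 0.00656%), 12 with an unadjusted p under 0.05 (6.85% of all genes) and 4 called by DESeq2 (0.926% of all genes). Of all genes, 50.3% were negative at 18 h over 6 h of WNT3A and 49.6% at 18 h over 6 h of CHIR99021.

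SYP encodes synaptophysin, a protein of synaptic vesicles. It had 4.42 and 2.82 CPM after 18 h of WNT3A and 4.47 and 2.59 CPM after 18 h of CHIR99021, against 25.6 and 17.5 CPM in mTeSR1. At 6 h it had 19.2 and 12.7 CPM with WNT3A and 21.7 and 13.9 CPM with CHIR99021, which overlapped mTeSR1. The log2 change of SYP was -2.56 (SE 0.39, edgeR FDR 0.0162) after 18 h of WNT3A and -2.28 (SE 0.25, FDR 0.0045) after 18 h of CHIR99021. CHRNB2, a subunit of the nicotinic acetylcholine receptor, had 3.58 and 3.11 CPM after 18 h of WNT3A and 3.70 and 2.03 CPM after 18 h of CHIR99021, against 14.6 and 15.1 CPM in mTeSR1. Its log2 change was -2.15 (SE 0.30, edgeR FDR 0.0107) with WNT3A and -2.335 (SE 0.30, edgeR FDR 0.00844) with CHIR99021. All 4 libraries at 18 h were below every library at 6 h and in mTeSR1 for both genes.

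SYN1, which tethers synaptic vesicles and carries the full element shown above, had 11.6 CPM in both libraries after 18 h of WNT3A. It had 14.1 and 11.1 CPM after 18 h of CHIR99021, against 23.8 and 29.4 CPM in mTeSR1. Its log2 change was -1.20 (SE 0.21, edgeR FDR 0.0253) with WNT3A and -1.16 (SE 0.19, FDR 0.018) with CHIR99021, where the call was lost without the block (FDR 0.0501). MAPK8IP1, a scaffold of JNK signalling, had 54.4 and 45.8 CPM after 18 h of WNT3A and 51.7 and 51.4 CPM after 18 h of CHIR99021, against 87.1 and 96.3 CPM in mTeSR1. Its log2 changes were -0.87 (SE 0.15, FDR 0.0272) and -0.78 (SE 0.14, FDR 0.0326).

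**Figure D5:**
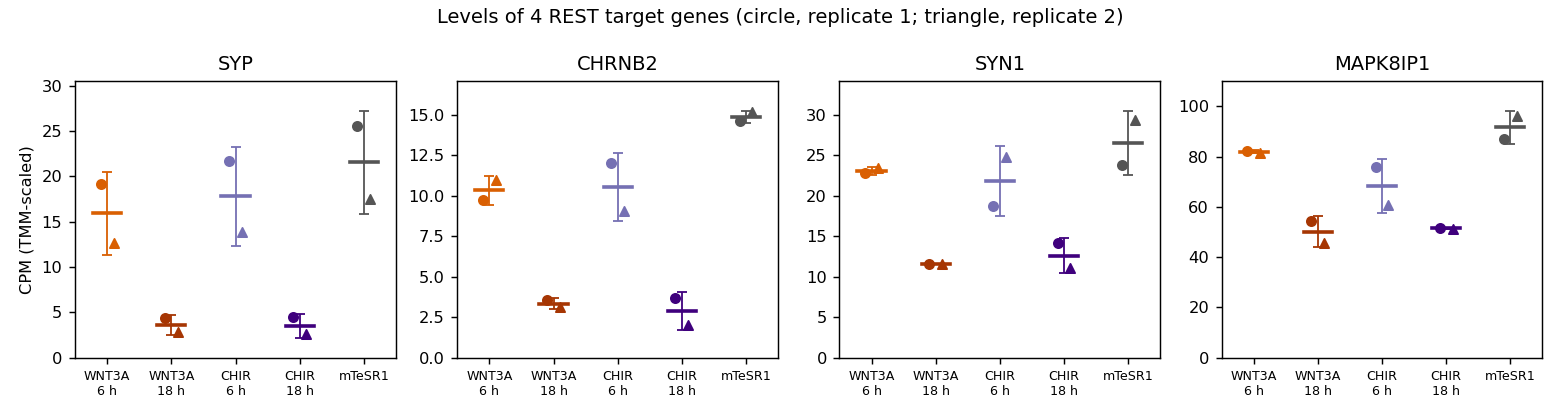
Levels of SYP, CHRNB2, SYN1 and MAPK8IP1 in each library, in CPM on linear axes from 0. Circles and triangles are replicates 1 and 2, lines are means and bars the SD of 2 libraries. The 18 h libraries of both treatments lie below the mTeSR1 libraries, for SYP between 2.59 and 4.47 CPM against 17.5 and 25.6 CPM.

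SYT4, a synaptotagmin, had 0.895 and 0.620 CPM after 18 h of CHIR99021, against 4.91 and 8.62 CPM in mTeSR1, and fell by 3.45 on the log2 scale (SE 0.43, edgeR FDR 0.00776). With WNT3A for 18 h it had 1.93 and 1.61 CPM, with a log2 change of -1.93 (SE 0.51) and FDR 0.112. RUNDC3A had 1.74 and 2.30 CPM after 18 h of WNT3A, against 4.496 and 5.56 CPM in mTeSR1 (log2 change -1.31, SE 0.27, edgeR FDR 0.0465). The RUNDC3A call was lost in 12 of 18 alternatives, separate identifiers among them. The stathmin gene STMN3 had 60.0 and 42.7 CPM after 18 h of CHIR99021, against 134 and 98.5 CPM in mTeSR1 (log2 change -0.94, SE 0.19, edgeR FDR 0.0433). The adaptor subunit gene AP3B2 had 11.5 and 9.36 CPM after 18 h of CHIR99021, against 14.5 and 20.4 CPM in mTeSR1 (log2 change -0.94, SE 0.18, edgeR FDR 0.0368). The STMN3 call was lost in 8 of 18 alternatives and the AP3B2 call in 10, no block among them for both. PTPRN, a protein of secretory granules, overlapped its controls, at 7.64 and 7.05 CPM after 18 h of CHIR99021, against 6.64 and 16.6 CPM in mTeSR1. Its call (log2 change -1.10, SE 0.23, edgeR FDR 0.044) rests on the block, and was lost in 11 of 18 alternatives, no block among them.

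Besides SYN1, the tested genes of the list that carry the left part of RE1 were not called at 18 h of WNT3A. CELSR3, an adhesion receptor of the cadherin family, had 72.9 and 69.2 CPM after 18 h of WNT3A, against 102 and 126.5 CPM in mTeSR1 (log2 change -0.69, SE 0.17, edgeR FDR 0.0898, called with the block). UNC13A had 107 and 74.8 CPM after 18 h of WNT3A, against 184 and 178 CPM in mTeSR1 (log2 change -0.99, SE 0.24, edgeR FDR 0.0878, called with the block). SCG3, a granin, had 51.2 and 48.6 CPM after 18 h of WNT3A, against 57.2 and 75.8 CPM in mTeSR1 (log2 change -0.42, SE 0.20, edgeR FDR 0.432). The most abundant target, TUBB3, the neuronal beta tubulin, had 248.6 and 211 CPM after 18 h of WNT3A and 329 and 252 CPM in mTeSR1 (log2 change -0.34, SE 0.23, FDR 0.59). STMN2 ran the other way, with 2.35 and 1.38 CPM after 18 h of WNT3A and 0.627 and 0.397 CPM in mTeSR1 (log2 change 1.85, SE 0.56, FDR 0.16).

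The target counts at 18 h rest on few libraries. For WNT3A the count was 0 without mTeSR1 replicate 1, 0 without either WNT3A 18 h library and 1 without mTeSR1 replicate 2. For CHIR99021 it was 0 without mTeSR1 replicate 2, 3 without mTeSR1 replicate 1, 2 without CHIR99021 18 h replicate 2 and 5 without either CHIR99021 6 h library. Without the pair of libraries that rose with transcript length it was 2 for WNT3A and 1 for CHIR99021.

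Markers of neural cells were low in these cultures. Neural progenitor genes (PAX6, SOX1, SIX3, LHX2) summed to 3.72 and 0.345 CPM after 18 h of WNT3A and 0.239 and 0.282 CPM after 18 h of CHIR99021, against 14.9 and 0.170 CPM in mTeSR1. At 6 h they summed to 10.2 and 0.589 CPM with WNT3A and 7.89 and 0.0539 CPM with CHIR99021. The libraries of repeat 1 were thus all above those of repeat 2, which were at or below 0.589 CPM, and with WNT3A at 18 h the repeat 1 library was the lowest of its repeat. The 13 neuronal fate genes summed to 32.7 and 30.9 CPM after 18 h of WNT3A and 32.9 and 30 CPM after 18 h of CHIR99021, against 63.1 and 58.9 CPM in mTeSR1. The proneural genes NEUROG1 and NEUROD1 were at 0 in both mTeSR1 libraries. Of 8 tested, MAP2, a microtubule protein of dendrites, was called after 18 h of CHIR99021, with 4.295 and 4.399 CPM against 29.7 and 17.3 CPM in mTeSR1 (log2 change -1.79, SE 0.29, edgeR FDR 0.0184). That call was lost without the block, without either mTeSR1 library and without either CHIR99021 18 h library. After 18 h of WNT3A edgeR called 0 of the 8. An unadjusted p was under 0.05 for 2 after 18 h of WNT3A and 3 after 18 h of CHIR99021, and DESeq2 called 2 lower in each. The median log2 change of the 8 was -0.64 and -0.73, against 0.02 over all genes. Of the 8, 6 were negative after 18 h of WNT3A and 5 after 18 h of CHIR99021. INSM1 ran the other way, with log2 changes of 1.60 (SE 0.77) with WNT3A and 2.03 (SE 0.61) with CHIR99021. So did POU3F2, with 1.84 (SE 1.25) and 1.45 (SE 1.15), and ELAVL4 with CHIR99021 only, with 0.35 (SE 0.60). The part of neural cells in the fall of the targets was not tested.

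The pluripotent marker list, by which the labelled cell type was checked, summed to 8740 to 11740 CPM in all 10 libraries, with 0 of 12 genes called by edgeR in any of the 4 comparisons. Unadjusted p was under 0.05 for 1 or 2 of them in each, and DESeq2 called at most 2. The sum was 11550 and 11740 CPM in mTeSR1, above every treated library. At 18 h, 7 of the 12 log2 changes were negative with WNT3A and 9 with CHIR99021. DNMT3B had 2430 and 2569 CPM in mTeSR1. After 18 h it had 1353 and 1211 CPM with WNT3A and 1522 and 937 CPM with CHIR99021. At 18 h, 13.6% of all genes had an unadjusted p under 0.05 with WNT3A and 19.6% with CHIR99021, and DESeq2 called 5.25% and 6.26%. The 8 WNT response genes had 4 called higher after 6 h of WNT3A, 5 after 18 h of WNT3A, 1 after 6 h of CHIR99021 and 6 after 18 h of CHIR99021. Of all genes, 0.387%, 1.04%, 0.0197% and 1.15% were called higher in these comparisons, in that order. Without single libraries the counts ranged from 1 to 5, 1 to 6, 0 to 1 and 1 to 6, lowest for WNT3A at 6 h and CHIR99021 at 18 h without either mTeSR1 library, and for WNT3A at 18 h without mTeSR1 replicate 1 or WNT3A 18 h replicate 1. The call of SP5 at 6 h of CHIR99021 was lost in 9 of 18 alternatives and that of LEF1 at 18 h of CHIR99021 in 13, no block among them. Of the 3 mesendoderm genes tested, 3 were called higher after 18 h of WNT3A and 1, EOMES, after 18 h of CHIR99021. The first count was 2 with the block, where the call of TBXT was lost, and 0 without either mTeSR1 library or WNT3A 18 h replicate 1. The call of EOMES after 18 h of CHIR99021 was lost in 12 of 18 alternatives, and without the block that count was 2. Of 5 amnion and trophoblast genes 1 was tested, the keratin gene KRT7, and edgeR called it in none of the 4 comparisons. KRT7 had a log2 change of -1.51 (SE 0.34, edgeR FDR 0.0685) after 18 h of WNT3A and -0.98 (SE 0.21, edgeR FDR 0.0519) after 18 h of CHIR99021. Its unadjusted p was under 0.05 in both, and DESeq2 called it lower in both, as did edgeR with the block after 18 h of WNT3A. Of 2 fibroblast genes tested, 1 was called, COL1A2, higher after 18 h of WNT3A (log2 change 0.99, SE 0.20, edgeR FDR 0.0484). That call was lost in 9 of 18 alternatives, another scaling and separate identifiers among them. The other gene tested, PDGFRB, had a log2 change of -0.20 (SE 0.30) there, and DCN and LUM were at 0 in both WNT3A 18 h libraries. Totals lay between 1.66e+07 and 2.67e+07 estimated counts per library, so that 3 counts correspond to 0.112 to 0.180 CPM. Mitochondrially encoded genes took 2.70% to 6.73% of the counts.

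Partners beyond the 9 genes gave no calls. Of 8 other CoREST and LSD1 complex genes, 0 were called by edgeR in the 4 comparisons with mTeSR1, with at most 2 at an unadjusted p under 0.05 and 0 by DESeq2. PHF21A, the reader of unmethylated H3K4 in that complex, had 27.0 and 25.1 CPM after 18 h of WNT3A and 28.9 and 26.9 CPM after 18 h of CHIR99021, against 34.9 and 43.5 CPM in mTeSR1. Its log2 changes were -0.59 (SE 0.17, FDR 0.13) and -0.55 (SE 0.16, FDR 0.111). Of 12 other SIN3 complex genes, 0 were called, with at most 1 at an unadjusted p under 0.05 and 0 by DESeq2. The histone-binding subunit gene RBBP4 had 359 and 386 CPM after 6 h of WNT3A and 277 and 299 CPM in mTeSR1, a difference that did not pass. Of 7 H3K9 methylation partners, 0 were called, with 0 at an unadjusted p under 0.05 and 0 by DESeq2.

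Genes that act on REST itself were also examined. Of 8, 0 were called by edgeR in the 4 comparisons, with at most 1 at an unadjusted p under 0.05 and 0 by DESeq2. SRRM4, a splicing factor that directs a truncated REST isoform in neural cells, was low throughout. It had 2.64 and 3.57 CPM after 6 h of WNT3A, 4.80 and 3.28 CPM after 18 h of WNT3A, 5.30 and 4.04 CPM after 6 h of CHIR99021, and 5.01 and 4.00 CPM after 18 h of CHIR99021, against 7.16 and 6.63 CPM in mTeSR1. No treated group overlapped mTeSR1 for SRRM4. The same held for 25.6% of genes tested after 6 h of WNT3A and 43.1% after 18 h. With CHIR99021 it held for 32.4% at 6 h and 46.9% at 18 h. The log2 change of SRRM4 after 6 h of WNT3A was -1.15 (SE 0.30, edgeR FDR 0.257). BTRC, which directs REST to degradation, had 44.8 and 51.7 CPM after 6 h of WNT3A and 45.9 and 49.8 CPM in mTeSR1. USP7, a deubiquitinase that stabilises REST, had 368 and 512 CPM after 6 h of WNT3A and 286 and 389 CPM in mTeSR1, replicate 2 being higher in both groups.

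The genes most like REST over the 10 libraries were ranked by Pearson's coefficient of log2 CPM, given as a description because libraries share groups, controls and repeats. The highest was CRTC3, a coactivator of CREB, at 0.985, with 18.7 and 21.1 CPM after 6 h of WNT3A, against 7.37 and 9.30 CPM in mTeSR1. PIK3R1, the regulatory subunit of PI3 kinase, followed at 0.972, with 56.1 and 88.9 CPM after 6 h of WNT3A, against 12.7 and 18.0 CPM in mTeSR1. GPRC5B, KITLG and NKD1 had 0.969, 0.967 and 0.964. The lowest were CXCL5 at -0.945, TMPRSS2 at -0.943, PLAU at -0.939, FOXD3 at -0.937 and TNFSF11 at -0.933. Among the co-repressors the coefficient with REST lay between -0.535 for RCOR2 and 0.127 for RCOR1.

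REST has 2 windows in RefSeq. The stretch before the first start is shown because REST was above mTeSR1 in every treated library. That stretch covers chr4:56907650-56907899 (plus strand, GRCh38.p14), with GGGCGG, the GC box, in capitals.
REST: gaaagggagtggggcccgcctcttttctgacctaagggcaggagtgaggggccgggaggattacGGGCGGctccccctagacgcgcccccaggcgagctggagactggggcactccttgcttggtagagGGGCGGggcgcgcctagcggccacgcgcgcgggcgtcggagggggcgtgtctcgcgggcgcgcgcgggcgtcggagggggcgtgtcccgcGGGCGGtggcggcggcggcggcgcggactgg
The stretch is 76.8% G or C and holds 3 GGGCGG on this strand. GGGCGG on either strand was in 45% of all windows and in windows of 7 of the 8 members matched in RefSeq, which have 11 windows. The TCF and LEF motif letters CTTTGAA and CTTTGAT, searched on both strands, were in 4.43% and 2.62% of all windows and in none of the members' windows.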

How the data were processed

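Poly-A selected RNA of 10 ESI017 libraries was sequenced in pairs, per the labels' protocols. The authors deposited 1 estimated count per gene and library. The submitters' processing notes name Salmon 1.8.0 and GRCh38, and the sources used here give neither transcript set nor strand setting. Counts were summed per symbol and rounded to whole numbers. The edgeR 4.0.16 quasi-likelihood test (R 4.3.3, TMM scaling, minimum count 10, minimum total 15) was fitted to all 10 libraries, and p-values were adjusted by Benjamini-Hochberg over 15251 genes. SE is the log2 change divided by the root of F. The repeat entered as a block where CHIR99021 18 h was compared, because repeat 1 lacks that treatment, and in no other comparison.

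The repeats pair libraries by the series' design text, and deviations of same-repeat libraries correlated at 0.261 to 0.595 over 6 pairs of groups. Replicates differed beyond sampling noise (chi-square per degree of freedom 12.6 to 106). P-values measure the spread between libraries. Both CHIR99021 18 h libraries are of repeat 2, so SE and FDR values there do not measure how that treatment varies between repeats. The members and lists were chosen with earlier results of these data known. Every member is described, and of the other lists genes with FDR under 0.05 in a comparison with mTeSR1 are named, with the 5 highest and 5 lowest for likeness to REST (prior count 2). CELSR3, KRT7, UNC13A, SCG3, TUBB3, STMN2, PHF21A, RBBP4, SRRM4, BTRC and USP7 were named after their values were seen, and the GC box motif was added then. Transcript lengths are from GENCODE 29, and promoter sequences from RefSeq. Alternatives were another scaling, DESeq2 1.42.0, no filter, separate identifiers, block, a length offset and leaving out libraries. The fit was tested on simulated data.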

Additional observations from a re-analysis of the deposited data

Results flagged for a closer look

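Among the 9 genes, 4 pairs of treated groups were looked at, 18 h against 6 h of each agent and CHIR99021 against WNT3A at each time. In 3 cases every library of one group lay above mTeSR1 of its repeat and every library of the other lay below. The edgeR fit called 0 of the 9 genes in these 3 comparisons, and the pattern of signs itself was not tested. How many of all genes show such a pattern was not counted, so nothing is read from the 3 cases. On the log2 scale, EHMT2 lay between -0.0941 and -0.0874 after 18 h of WNT3A and between 0.0609 and 0.137 after 6 h of WNT3A, a difference of -0.19. KDM1A lay between -0.414 and -0.0243 after 6 h of CHIR99021 and between 0.0441 and 0.088 after 6 h of WNT3A, a difference of -0.285. HDAC2 lay between -0.16 and -0.089 after 18 h of CHIR99021 and between 0.000461 and 0.0714 after 18 h of WNT3A, a difference of -0.16. KDM1A was high in the repeat 2 libraries of mTeSR1 (470 CPM) and of WNT3A 6 h (484 CPM), and the part of those libraries was not tested.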

How the results depend on the processing

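REST kept a positive log2 change over mTeSR1 in all 4 comparisons under all 18 alternatives. Without single libraries it ranged from 1.27 to 1.55 (WNT3A 6 h), 1.04 to 1.43 (WNT3A 18 h), 0.42 to 0.65 (CHIR99021 6 h) and 0.95 to 1.19 (CHIR99021 18 h). It was 1.36 for CHIR99021 18 h without mTeSR1 replicate 2 and WNT3A 6 h replicate 2 together, an alternative chosen after seeing the data, as was leaving mitochondrial genes out of the totals. Without single libraries, 18 h over 6 h of WNT3A ranged from -0.37 to 0.01, so its direction is not settled.

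Members called ranged from 0 to 1 without single libraries for WNT3A 6 h, WNT3A 18 h and CHIR99021 18 h, and stood at 0 for WNT3A 6 h without both libraries. Genes called ranged from 13 to 88 (WNT3A 6 h), 53 to 387 (WNT3A 18 h), 1 to 14 (CHIR99021 6 h) and 10 to 522 (CHIR99021 18 h) without single libraries, and were 10, 128, 1 and 96 without both. Main counts were 66, 320, 3 and 424. DESeq2 called 249, 801, 65 and 918. With no filter 173, 576 and 32 were called in the first 3 comparisons. With separate identifiers 1 was called for CHIR99021 6 h and 254 for CHIR99021 18 h.

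REST targets called ranged from 0 to 6 (WNT3A 18 h, main 5) and 0 to 8 (CHIR99021 18 h, main 8) without single libraries, and were 2 and 1 without both. For WNT3A 18 h they were 12 with no filter and 13 with DESeq2, and for CHIR99021 18 h 5 with separate identifiers.

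With the replicate block 168, 751 and 21 genes were called for WNT3A 6 h, WNT3A 18 h and CHIR99021 6 h, and 14 targets for WNT3A 18 h. With no replicate block 181 genes and 4 targets were called for CHIR99021 18 h. The block with a length offset gave 282, 1167, 45 and 789 genes, and 15 targets for WNT3A 18 h. The causes of these shifts were not tested, and fits that left libraries out also had fewer of them.

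Depth is not the main limit for the members, which had at least 301 counts in a library, while targets near 1 CPM rest on few reads. With 2 libraries a group the spread is borrowed across groups and genes.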
